A study of Danio rerio with 9 samples.

Results

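The genes described here are slc12a1, slc12a3, clcnk and bsnd, which encode salt transport proteins of the distal nephron. They were chosen by symbol, as the rows of the deposited gene table that carry these names, and each symbol matched 1 row, so that 4 of 30628 genes in the table are described. The rule reads symbols alone, and the 4 genes were picked with earlier results of these data known. The data are RNA sequencing libraries of kidneys from 12-month-old wild-type zebrafish of the WIK strain, a laboratory line, with 4 male libraries (M1, M2, pkd1M1 and pkd1M4) and 5 female libraries (F1, F2, F3, F4 and F6). The labels name no allele, agent or treatment that sets the groups apart other than sex, and the genotype given for all the fish is wild type. The column names of 2 male libraries carry pkd1 beside wt, and these were used by their sex alone. No female column name carries pkd1 and its meaning is not given, so what it marks cannot be fully told apart from sex. The labels do not say whether a library holds the kidneys of 1 fish or of several, and the p-values below measure the spread between these libraries. The question of the comparison was whether kidney transcripts differ between male and female fish.

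The distal nephron takes up salt from the tubular fluid after the proximal tubule has reclaimed most of the filtered solutes. In its early part, which corresponds to the thick ascending limb of mammals, the Na-K-2Cl cotransporter NKCC2, the product of slc12a1, carries sodium, potassium and chloride across the apical membrane, and potassium returns to the lumen through the channel ROMK, encoded by kcnj1 genes. In the late part the Na-Cl cotransporter NCC, the product of slc12a3, takes over, and in both parts chloride leaves the cell at the basolateral side through a ClC-K channel, encoded by clcnk in the zebrafish, with its accessory subunit barttin, encoded by bsnd. Inherited loss of these proteins causes salt wasting in humans, known as Bartter syndrome for NKCC2, ROMK, ClC-Kb and barttin and as Gitelman syndrome for NCC. Freshwater fish take up salt from a dilute environment, and the distal segments of their kidneys reclaim sodium and chloride before the urine is passed.

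Total counts were between 24902978 and 52986838 per library in males and between 30714070 and 38758188 in females. The values are estimated counts for each gene, and levels are given as CPM, each library's counts scaled to a common total, after TMM normalization of the library sizes. It is not settled whether the length of the gene was taken out of these values, so levels are compared between libraries for the same gene and not between genes. The edgeR quasi-likelihood test was run on 22148 genes that had enough counts. Log2 fold changes above 0 mark higher levels in males. A gene was called at an adjusted p under 0.05 (Benjamini-Hochberg over all genes tested) and a log2 fold change of more than 1.5 in size. Of all genes tested, 3.48% were called higher in males and 3.06% higher in females. At an adjusted p under 0.05 alone, 7.02% were higher in males and 6.20% in females. The share of all genes below an unadjusted p of 0.05 was not taken. That share is larger than these, so counts at that level given below have no background beside them and are not read as results. In 8.42% of the genes all male libraries exceeded all female ones. The median log2 fold change over all genes tested was -0.03.

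All 4 salt transport genes were higher in males at an adjusted p under 0.05, by between 2.31-fold and 4.81-fold, and bsnd alone also passed the limit on the fold change. In slc12a1 and bsnd males and females did not overlap, and in slc12a3 and clcnk the male library pkd1M1 lay below the female library F6. The median log2 fold change of the 4 genes was 1.39. F6 was the highest female library in each of the 4 genes, between 1.93 and 2.98 times the mean of the other females.

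**Figure D1:**
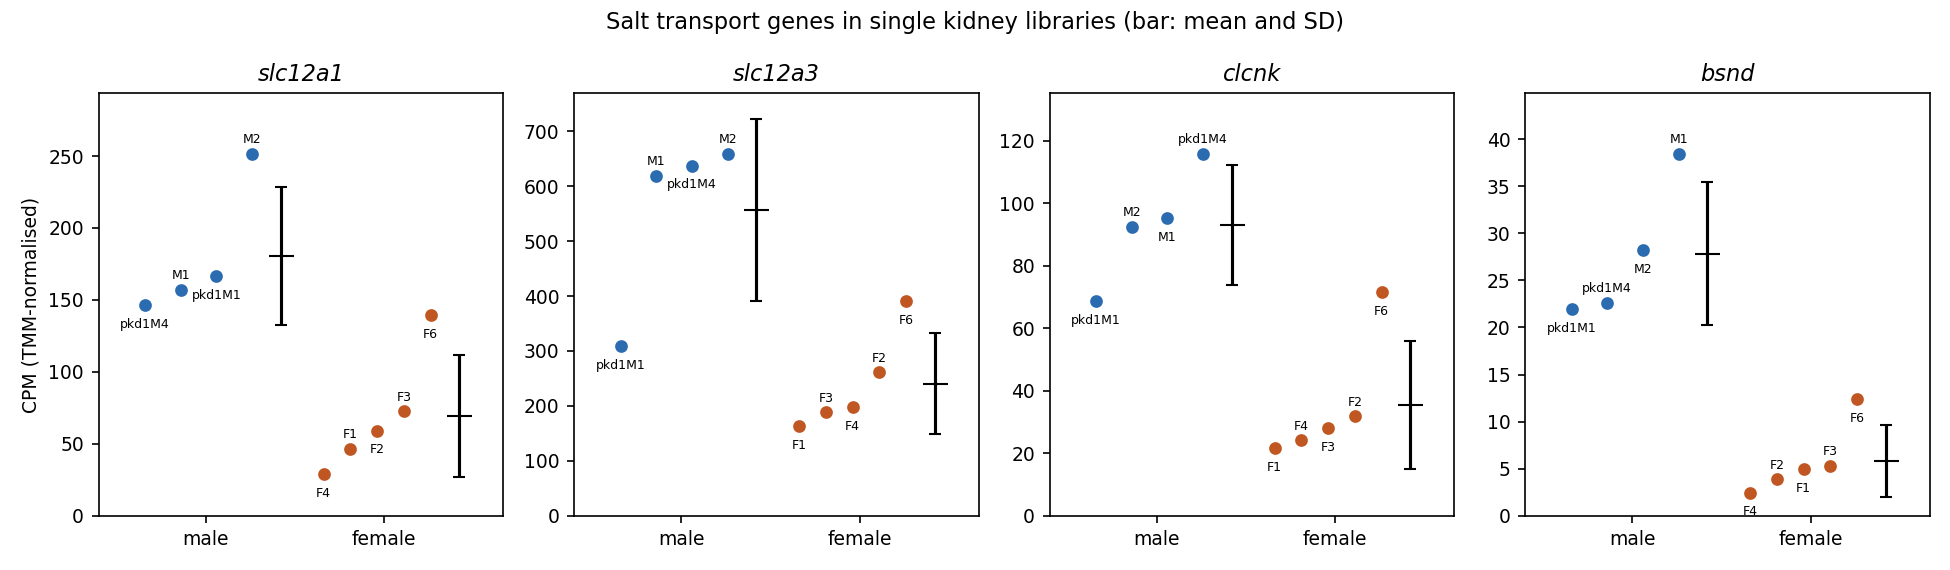
Level of each salt transport gene (vertical axis, TMM-normalized CPM) in the 4 male libraries (blue) and 5 female libraries (orange), with the mean and SD of each sex as bars beside the points and the points of a sex ordered by level only to keep their names apart. F6 tops the females in every panel, and pkd1M1 at 310 CPM of slc12a3 and 68.8 CPM of clcnk lies below F6.

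The gene slc12a1 (ENSDARG00000098096, chromosome 18 from 5273953 to 5300028 in the coordinates of the deposited table) encodes the apical cotransporter of the early distal segment. Among the male libraries, its level was 157 CPM in M1 and 252 CPM in M2, with 167 CPM in pkd1M1 and 146.5 CPM in pkd1M4. Of the females, F1 had 46.5, F2 59.2, F3 72.7, F4 29.1 and F6 139.7 CPM. All males exceeded all females, but the lowest male was only 1.05 times F6, whereas it was 2.02 times the highest of the other females. The male mean was 180.5 ± 48.1 CPM (SD, n = 4) and the female mean 69.4 ± 42.4 CPM (SD, n = 5). The log2 fold change was 1.38 ± 0.39 (SE), with an adjusted p of 0.0418. By a 2-sided exact permutation test over the 126 regroupings of the libraries, p was 0.0159, the smallest that 4 against 5 libraries can give. The coefficient of variation was 61.1% over the females and 26.6% over the males. The adjusted p stayed under 0.05 when F6 was left out, where the log2 fold change was 1.80 with an adjusted p of 0.00374, and rose above 0.05 when any 1 of M1, M2, pkd1M1, pkd1M4, F1, F2, F3 or F4 was left out. It was then between 0.0596 without F4 and 0.111 without M2, and the log2 fold change stayed between 1.17 and 1.46.

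The gene slc12a3 (ENSDARG00000013855, chromosome 18 from 17583479 to 17598755) encodes the thiazide-sensitive cotransporter of the late distal segment. Of the males, M1 had 620, M2 659, pkd1M1 310 and pkd1M4 638 CPM. Of the females, F1 had 163, F2 261, F3 189, F4 198 and F6 391 CPM. The sexes overlapped through 1 male library, since pkd1M1 was 0.791 times F6, while the other 3 males lay between 620 and 659 CPM. The male mean was 557 ± 165 CPM (SD, n = 4) and the female mean 241 ± 91.7 CPM (SD, n = 5). The log2 fold change was 1.21 ± 0.30 (SE), the smallest of the 4 genes, with an adjusted p of 0.0245 and a p of 0.0317 by the 2-sided exact permutation test. The adjusted p stayed under 0.05 without pkd1M1 (log2 fold change 1.41, adjusted p 0.0157) and without F6 (1.46, adjusted p 0.00562). It lay between 0.0525 and 0.0664 when any 1 of M1, M2, pkd1M4, F1, F2, F3 or F4 was left out, with log2 fold changes between 1.099 and 1.24.

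The gene clcnk (ENSDARG00000022560, chromosome 23 from 24272421 to 24291927) encodes the basolateral chloride channel that both distal segments use. The male M1 had 95.1, M2 92.4, pkd1M1 68.8 and pkd1M4 115.8 CPM. The female F1 had 21.5, F2 31.8, F3 28.1, F4 24.1 and F6 71.4 CPM. The other 4 females lay in a narrow band, and F6 was 2.71 times their mean and just above pkd1M1. The male mean was 93.0 ± 19.2 CPM (SD, n = 4) and the female mean 35.4 ± 20.5 CPM (SD, n = 5). The log2 fold change was 1.40 ± 0.35 (SE), with an adjusted p of 0.0241 and a p of 0.0317 by the 2-sided exact permutation test. The adjusted p stayed under 0.05 without pkd1M1 (log2 fold change 1.51, adjusted p 0.0368), without F1 (1.26, adjusted p 0.0490) and without F6 (1.82, adjusted p 0.000726). It lay between 0.0502 and 0.0686 without any 1 of M1, M2, pkd1M4, F2, F3 or F4, with log2 fold changes between 1.27 and 1.40.

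The gene bsnd (ENSDARG00000086265, chromosome 20 from 7243879 to 7251770) encodes barttin, without which ClC-K channels of mammals do not reach the cell surface in working form. Of the males, M1 had 38.5, M2 28.3, pkd1M1 21.97 and pkd1M4 22.6 CPM. Of the females, F1 had 4.93, F2 3.89, F3 5.33, F4 2.46 and F6 12.4 CPM. There was no overlap between the sexes, and the lowest male library was 1.78 times F6 and 4.12 times the highest of the other females. The male mean was 27.8 ± 7.62 CPM (SD, n = 4) and the female mean 5.79 ± 3.83 CPM (SD, n = 5). The log2 fold change was 2.27 ± 0.43 (SE), with an adjusted p of 0.00713 and a p of 0.0159 by the 2-sided exact permutation test. It was called in each of the 9 fits that left out 1 library, with log2 fold changes between 2.06 and 2.74 and adjusted p between 0.000817 and 0.0249. Its log2 fold change was higher than that of 97.0% of the genes tested, against 91.2% for slc12a1, 89.2% for slc12a3 and 91.4% for clcnk.

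Without F6 the log2 fold changes of all 4 genes were larger than with it, and 3 of the 4 genes were then called, as opposed to 1 with all libraries. Since F6 was the highest female in each gene, the larger values follow from leaving it out and are no separate result. Without pkd1M1, 2 of the 4 were called. The same limit holds there for slc12a3, clcnk and bsnd, in which pkd1M1 was the lowest male. Over all genes 1707 were called without F6 and 1086 without pkd1M1, against 1448 with all libraries. Without both pkd1M1 and pkd1M4 the log2 fold change was 1.55 in slc12a1, 1.41 in slc12a3, 1.40 in clcnk and 2.52 in bsnd, and only bsnd passed the test, with an adjusted p of 0.0402 against values between 0.0552 and 0.142 in the others. Of the 1554 genes of the whole table that were higher in males at an adjusted p under 0.05, 852 (54.8%) passed in all 9 fits that left out 1 library.

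**Figure D2:**
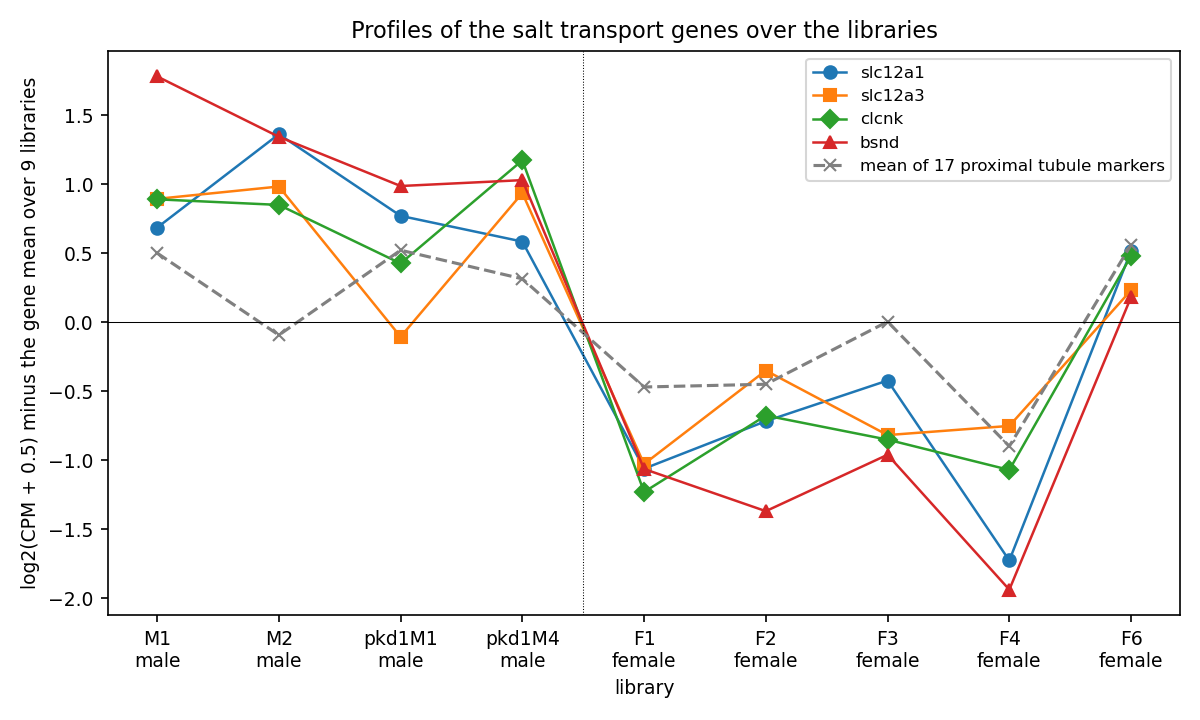
Level of each salt transport gene in each library on the log2(CPM + 0.5) scale after its mean over the 9 libraries was subtracted (vertical axis), by library (horizontal axis, males left of the dotted line), with the mean of 17 proximal tubule markers as a dashed line. The lines join the points of a gene only for reading, and F6 stands above the other females in all 5 lines.

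Relative levels of the 4 genes within a library do not depend on its depth. For each of the 6 pairs of genes the log2 ratio of CPM was compared between the sexes by a 2-sided exact permutation test, with p adjusted over the 6 pairs. The 2 cotransporters and the chloride channel did not differ from each other in their sex difference beyond the spread of the libraries. The log2 ratio of slc12a1 to slc12a3 averaged -1.596 ± 0.57 (SD, n = 4) over males and -1.92 ± 0.56 (SD, n = 5) over females, a difference of 0.32 ± 0.38 (SE) with an adjusted exact p of 0.514. The ratio of slc12a1 to clcnk differed by 0.02 ± 0.31 (SE, adjusted exact p 0.968) and changed sign without M2 (-0.14), without pkd1M1 (-0.089) and without F4 (-0.14). The ratio of slc12a3 to clcnk differed by -0.30 ± 0.18 (SE, adjusted exact p 0.238).

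Ratios that involve bsnd were lower in males, which is to say that bsnd stood higher against its partners there. The log2 ratio of slc12a1 to bsnd was between 2.03 and 3.15 in males and between 3.24 and 3.93 in females, without overlap, and differed by -0.90 ± 0.27 (SE, exact p 0.0159, adjusted p 0.0476). The ratio of slc12a3 to bsnd was between 3.82 and 4.82 in males and between 4.98 and 6.33 in females, again without overlap, and differed by -1.22 ± 0.37 (SE, exact p 0.0159, adjusted p 0.0476). The ratio of the channel clcnk to its subunit bsnd averaged 1.75 ± 0.44 (SD, n = 4) over males and 2.67 ± 0.48 (SD, n = 5) over females, a difference of -0.92 ± 0.31 (SE) that did not pass the test after adjustment (exact p 0.0317, adjusted p 0.0635). The sexes stayed apart in the pairs of slc12a1 or slc12a3 with bsnd, but without any 1 of the 9 libraries the adjusted exact p was above 0.05 (0.0571 to 0.107). The smallest exact p possible is then 0.0286 or 0.0357 before adjustment over the pairs. The differences in those 2 pairs stayed between -0.68 and -1.39.

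Zebrafish form blood in the kidney, in tissue that surrounds the nephrons, so the 4 genes were also set against 17 markers of the proximal tubule, the neighbouring part of the same nephron. In bulk tissue fewer cells of a type and less RNA per cell cannot be told apart. The summed level of the proximal markers was 4114 CPM in M2 and between 4942 and 6261 CPM in the other males. Among the females F1 had 2497, F2 2423, F3 2966, F4 1782 and F6 5320 CPM, so that F6 alone of the females lay in the male range of this sum. In males its largest parts came from slc22a6l (mean 1131 CPM, against 179 CPM in females) and slc13a3 (804 against 257 CPM). Both were themselves called higher in males, so the gap in the sum rests in large part on these markers. The sum without them was not taken. The mean log2 level of the markers averaged 7.16 ± 0.29 (SD, n = 4) over males and 6.602 ± 0.55 (SD, n = 5) over females, and this difference of 0.56 did not pass a 2-sided exact permutation test (p = 0.143). Of the 17 markers 3 were called higher in males (slc13a3, slc7a9 and slc22a6l), 1 more passed the adjusted p alone (amn), and the median log2 fold change was 0.23. The list was split in direction, with 10 of 17 log2 fold changes above 0 and the rest below. All males exceeded all females in 4 markers, and all females exceeded all males in 1. That marker was aqp1a.1 (log2 fold change -0.80 ± 0.25 SE, adjusted p 0.0629), named after its value was seen.

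Taken relative to the proximal markers of the same library, slc12a1, clcnk and bsnd were still higher in males and slc12a3 did not pass the test. On the log2 scale slc12a1 lay between -0.05 and 1.22 in males and between -1.06 and -0.28 in females. The sexes did not overlap and differed by 0.97 ± 0.33 (SE, 2-sided exact permutation p 0.0159, adjusted over the 4 genes 0.0317). M2 at 1.22 stood far above the other males, which lay between -0.05 and 0.03, and the difference without M2 was 0.67. For bsnd the males lay between -2.88 and -1.91 and the females between -4.39 and -3.73, with F6 at -3.73, and the difference was 1.75 ± 0.26 (SE, exact p 0.0159, adjusted p 0.0317). For clcnk the difference was 0.94 ± 0.29 (SE, exact p 0.0317, adjusted p 0.0423), with an overlap between the sexes. For slc12a3 it was 0.66 ± 0.41 (SE, exact p 0.143, adjusted p 0.143), and 0.99 with an adjusted exact p of 0.0357 without pkd1M1.

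**Figure D3:**
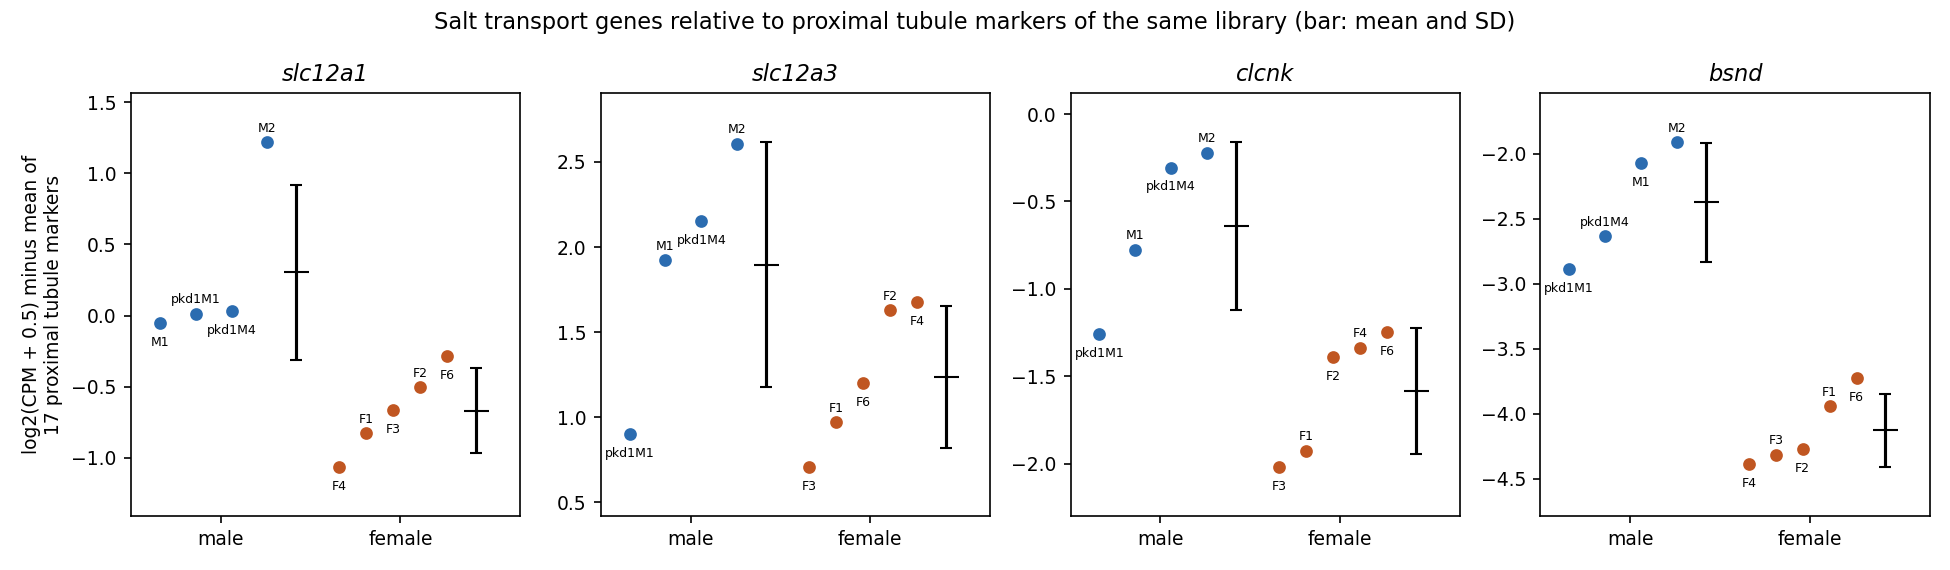
Level of each salt transport gene relative to the proximal tubule (vertical axis, log2(CPM + 0.5) of the gene minus the mean of the same over 17 proximal tubule markers) in male (blue) and female (orange) libraries, with the mean and SD of each sex as bars beside the points. On this scale F6 lies among or close to the other females in every panel, while the males lie above all females in the panels of slc12a1 and bsnd.

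The adjusted exact p of slc12a1, clcnk and bsnd against the proximal markers rose above 0.05 without any 1 of M1, M2, pkd1M4, F1, F2, F3 or F4 (0.0571 to 0.0952), and the differences kept their sign (0.67 to 1.09 for slc12a1, 0.80 to 1.149 for clcnk and 1.599 to 1.92 for bsnd). With 1 library left out the smallest exact p possible is 0.0286 or 0.0357 before adjustment over the 4 genes. The rise is thus in part set by the number of libraries.

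Markers of other cells of the kidney also varied with sex or with single libraries, and their part in the results above was not tested. The 8 lymphoid markers had a summed level between 74.2 and 160.3 CPM in males and between 188.8 and 672 CPM in females. The sum was lowest in F6 and was led by the row taken as ighm. It was matched to ighm through a table of gene names, and its symbol in the deposited table is ighv1-4. That row alone was between 50.7 and 122.5 CPM in males and between 86.5 and 583 CPM in females, with overlap. Among the females, that row and lck were lowest in F6, whereas cd79a, pax5, rag2 and cd4-1 were highest in F6. Of the 8 markers 0 were called by edgeR's quasi-likelihood test, which is near the share of all genes (3.48% higher in males and 3.06% in females). DESeq2 called 2 of the 8 and edgeR's exact test 2. Below an unadjusted p of 0.05 were 6, and the median log2 fold change was -1.44. Of the 8 myeloid markers 4 passed the adjusted p, 1 of them called, all higher in females. The summed level of the erythroid markers, led by the globins, overlapped between 11838 and 43641 CPM in males and between 16579 and 52887 CPM in females, where F6 was the highest. Oocyte markers summed to at most 4.67 CPM in males, to 2778 CPM in F1 and to between 4.68 and 104.2 CPM in the other females. The gene stc2a, listed as a marker of the corpuscles of Stannius, endocrine bodies attached to the fish kidney, was called higher in males. Of 3 tested markers of that list 1 was called. Neither stc1l (log2 fold change 0.42 ± 1.35 SE, adjusted p 0.887) nor casr (-0.05 ± 1.26 SE, adjusted p 0.987) passed the adjusted p. Standard errors of this size cannot show that the sexes are alike, and the list as a whole was not tested. Its summed level was between 339.5 and 1302 CPM in males and between 20.8 and 394 CPM in females. In males the sum was mostly stc2a (230.7 to 1281.5 CPM, against 20.8 to 305.7 CPM of stc1l). The female maximum, in F2, was mostly stc1l (376 CPM, against 17.7 CPM of stc2a). The sum thus mixes unlike profiles and is not read as a level of this tissue. The 8 markers of multiciliated cells, which lie scattered along the nephron, all had log2 fold changes above 0, with a median of 0.80 and a summed level between 111.9 and 186.7 CPM in males and between 50.6 and 118.9 CPM in females. Of these 8, odf3b was called higher in males (log2 fold change 1.70 ± 0.42 SE, adjusted p 0.0243). Of 4 tested markers of proton-secreting and acid-base cells, 1 was called, the ammonia channel gene rhcgb, with 134.7 to 418 CPM in males and 28.9 to 130.5 CPM in females, highest in F6 (log2 fold change 2.14 ± 0.49 SE, adjusted p 0.0175). Of 9 tested rows of podocyte markers, wt1b (log2 fold change -4.39 ± 0.66 SE, adjusted p 0.00238) and magi2a (log2 fold change -1.67 ± 0.44 SE, adjusted p 0.0325) were called higher in females, and podxl passed the adjusted p alone, higher in males. The labelled tissue was borne out by proximal tubule markers and by podocyte markers in all libraries, the latter summing to between 208.7 and 307 CPM in males and between 223.7 and 330 CPM in females.

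Other genes of the salt transport pathway were taken from 7 lists with 105 genes in all. Of these 99 were found in the table and 86 had enough counts for the test. In males 16 of the 86 were called higher, against the 3.48% of all genes, and 25, these included, passed the adjusted p, against 7.02%. In females 0 were called by edgeR's quasi-likelihood test and 0 passed the adjusted p, against 3.06% and 6.20%, with 3 below an unadjusted p of 0.05. DESeq2 and edgeR's exact test each called 1 gene of the lists higher in females, the nephron factor gene lhx1a, which had a log2 fold change of -1.95 ± 0.59 (SE) and an adjusted p of 0.0542 by the quasi-likelihood test and was named for this reason. The median log2 fold change of the 86 genes was 0.73, against -0.03 over all genes. In the 9 fits that left out 1 library, 14 of the 16 called genes always passed the adjusted p, all but slc12a10.3 and pou3f3b, and 11 were called in every fit. The 3 others, cldn10b, gata3 and sim1a, named because they lost the call, had log2 fold changes under 1.5 in some fits, down to 1.41, 1.18 and 1.34. The call of gata3 was lost without any 1 of pkd1M4, F1, F3 or F4 and that of sim1a without M1 or F1. Of all 771 genes called higher in males, 530 (68.7%) passed the adjusted p in all 9 fits, against 87.5% of the 16. In all 9 fits 430 of the 771 (55.8%) were called, against 68.75% of the 16.

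**Figure D4:**
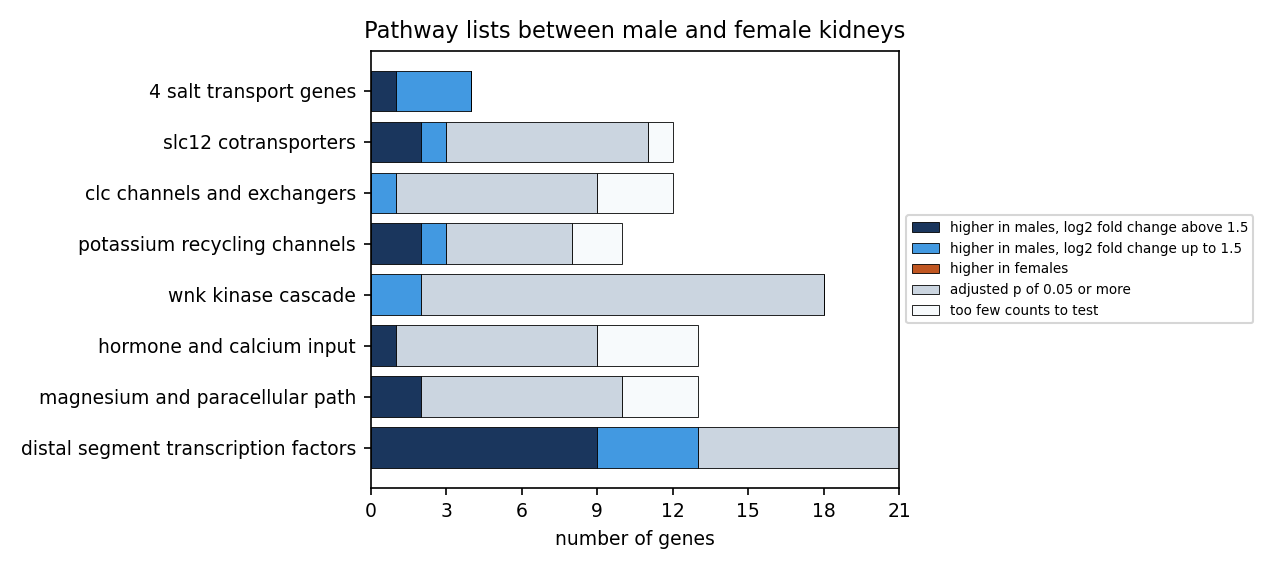
Number of genes (horizontal axis) in the 4 salt transport genes and in each of 7 pathway lists that were called higher in males, higher in males at a smaller fold change, higher in females, not past an adjusted p of 0.05, or too low to test. The colour for females appears in no bar, and the list of distal segment transcription factors has the most called genes, 9 of 21.

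Among the other genes of the slc12 family, 2 of 11 tested were called higher in males, 1 more passed the adjusted p alone and the median log2 fold change was 0.52. The gene slc12a9, a distant relative, was between 214 and 389 CPM in males and between 65.3 and 113.8 CPM in females, without overlap (log2 fold change 1.90 ± 0.23 SE, adjusted p 0.000850). In contrast to the distal salt transporters, F6 was the lowest female library for slc12a9. The slc12a10 genes are the fish relatives nearest to slc12a3 and all lie on chromosome 7, so that reads they share could have been divided between them by estimation. Of these slc12a10.3 was called (log2 fold change 1.99 ± 0.57 SE, adjusted p 0.0430), and M1 had 173, M2 145.0, pkd1M1 45.0 and pkd1M4 161 CPM against 8.91 to 61.2 CPM in females. The libraries overlapped through pkd1M1 as in slc12a3, and the call was lost without any 1 of M1, M2, pkd1M4, F1, F3, F4 or F6 (adjusted p 0.0585 to 0.103). The low-level slc12a10.2 had a log2 fold change of 0.52 ± 0.66 (SE, adjusted p 0.684), and slc12a10.1, at most 0.390 CPM in a library, was not tested. The third gene of the list past the adjusted p was slc12a7b, a K-Cl cotransporter (log2 fold change 1.04, adjusted p 0.0381), named after its value was seen. NKCC1, encoded by slc12a2, is the secretory counterpart of NKCC2 and had a log2 fold change of -0.23 ± 0.19 (SE, adjusted p 0.506), a value likewise looked up afterwards.

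Among the other ClC channels and exchangers 0 of 9 tested were called by edgeR's quasi-likelihood test, by DESeq2 or by edgeR's exact test. The quasi-likelihood test called 3.48% of all genes higher in males and 3.06% higher in females, so 0 of 9 is near that share. Below an unadjusted p of 0.05 were 4 (3 higher in males and 1 in females), without a share over all genes beside them. The median log2 fold change was 0.50, and 1 gene passed the adjusted p alone. That gene was clcn2b (log2 fold change 0.94, adjusted p 0.0381), which encodes a ClC-2 type channel and was named after its value was seen.

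Of the potassium channels that recycle potassium across the membranes of these cells, 2 of 8 tested were called higher in males, 1 more passed the adjusted p alone, and all 8 log2 fold changes were above 0, with a median of 1.03. The smallest, that of kcnj1b, was 0.002 ± 1.07 (SE) and shows no direction. That of kcnj16 was 0.46 ± 0.39 (SE, adjusted p 0.519). Both genes were named after their values were seen. For the ROMK gene kcnj1a.1, M1 had 269, M2 254, pkd1M1 163 and pkd1M4 359 CPM. Of the females, F1 had 54.3, F2 51.3, F3 36.1, F4 36.6 and F6 121.7 CPM. The lowest male was pkd1M1, as in slc12a3, clcnk and bsnd but not in slc12a1, where it was pkd1M4, and the highest female was F6, as in all 4. In kcnj1a.1 the sexes did not overlap (log2 fold change 2.12 ± 0.38 SE, adjusted p 0.00539). The kcnj1a genes are closely related copies on chromosome 18, so the division of reads between them is uncertain. The copy kcnj1a.5 was between 2.93 and 6.53 CPM in males and at most 0.423 CPM in females (log2 fold change 4.84 ± 1.07 SE, adjusted p 0.0151). Its log2 fold change was 5.51 without F2, and without both pkd1M1 and pkd1M4 its adjusted p was 0.0807. The copies kcnj1a.2, kcnj1a.3 and kcnj1a.6 had log2 fold changes of 1.31, 0.75 and 0.34 and did not pass the test (adjusted p 0.181, 0.813 and 0.581). The value of kcnj1a.3, which was at most 1.43 CPM in a library, was -0.089 without M1. The copy kcnj1a.4 was 0 in 7 libraries and was not tested. The basolateral channel gene kcnj15 passed the adjusted p alone (log2 fold change 1.31, adjusted p 0.0319) and was named after its value was seen.

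The WNK kinases phosphorylate SPAK and OSR1 (stk39, oxsr1a and oxsr1b), which in turn phosphorylate and switch on NKCC2 and NCC. Of 18 genes of this cascade tested, 0 were called by any of the 3 tests, 5 higher in males and 1 higher in females were below an unadjusted p of 0.05, 2 passed the adjusted p alone and the median log2 fold change was 0.29. Those were sgk1, an aldosterone-induced kinase (log2 fold change 0.82, adjusted p 0.0268), and nedd4l, a ubiquitin ligase of sodium transport proteins (0.93, adjusted p 0.0256), both named after their values were seen. Neither the kinases stk39 (0.53 ± 0.22 SE, adjusted p 0.146), oxsr1a (0.39 ± 0.24 SE, adjusted p 0.330) and oxsr1b (0.14 ± 0.18 SE, adjusted p 0.700) nor wnk1a (-0.52 ± 0.18 SE, adjusted p 0.0909) passed it, and these 4 were chosen for their role after values were seen.

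Of 9 tested genes that bring hormone or calcium signals to these segments, 1 was called and the median log2 fold change was -0.04. The vasopressin V2-type receptor gene avpr2ab was between 17.3 and 80.6 CPM in males, highest in pkd1M1, and between 3.76 and 11.6 CPM in females (log2 fold change 2.44 ± 0.50 SE, adjusted p 0.0104). Without pkd1M1 the log2 fold change was 1.73 with an adjusted p of 0.0278, and without both pkd1M1 and pkd1M4 it was 1.78 and the call was lost (adjusted p 0.0749). In the list of magnesium transport and the paracellular path 2 of 10 tested were called and the median was 0.93. The magnesium-permeable channel kinase gene trpm7 was between 239 and 607 CPM in males and between 91.0 and 166.8 CPM in females (log2 fold change 1.85 ± 0.28 SE, adjusted p 0.00246). The claudin gene cldn10b, whose mammalian relative forms the cation pore of the thick ascending limb, was between 201 and 278 CPM in males and between 43.2 and 120.4 CPM in females, highest in F6 (log2 fold change 1.57 ± 0.28 SE, adjusted p 0.00511). Its log2 fold change was below the limit of 1.5 without M2 (1.46), F3 (1.48) or F4 (1.41), with adjusted p of 0.0160, 0.0147 and 0.00698.

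The list of distal segment transcription factors had the highest share of called genes among the 7 lists. Of 21 tested 9 were called higher in males, against 3.48% of all genes. A further 4 passed the adjusted p alone, and the median log2 fold change was 1.51. In irx1a, an Iroquois factor, the males were between 103.6 and 131 CPM and the females between 14.9 and 32.5 CPM, highest in F6 (log2 fold change 2.40 ± 0.23 SE, adjusted p 0.000307). The related irx2a, also on chromosome 16, had a log2 fold change of 2.34 ± 0.40 (SE, adjusted p 0.00459). The gene irx3b, which the early distal segment of the zebrafish embryo needs, was between 51.7 and 129 CPM in males and between 2.37 and 16.6 CPM in females (2.97 ± 0.47 SE, adjusted p 0.00318). The AP-2 gene tfap2b, which acts with tfap2a in the distal segments of the embryo, was between 26.4 and 62.4 CPM in males and between 5.23 and 10.4 CPM in females (2.39 ± 0.30 SE, adjusted p 0.000987). The gene hnf1bb, of a family that sets up nephron segments, was between 388 and 732 CPM in males and between 91.3 and 139.1 CPM in females (2.29 ± 0.23 SE, adjusted p 0.000359). The POU factor gene pou3f3a was between 42.6 and 92.3 CPM in males and between 9.89 and 15.7 CPM in females (2.61 ± 0.26 SE, adjusted p 0.000359). In each of these 6 genes F6 or F3 was the highest female, and the sexes did not overlap. The paralog pou3f3b, named because its call was lost, had a log2 fold change of 1.51 with an adjusted p of 0.0306, and 1.14 with an adjusted p of 0.0954 without pkd1M1. The list was meant for distal segments, but not all of its factors are particular to them. Several, hnf1bb among them, are active in other parts of the nephron, so the 9 called genes cannot be counted as distal factors alone.

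**Figure D5:**
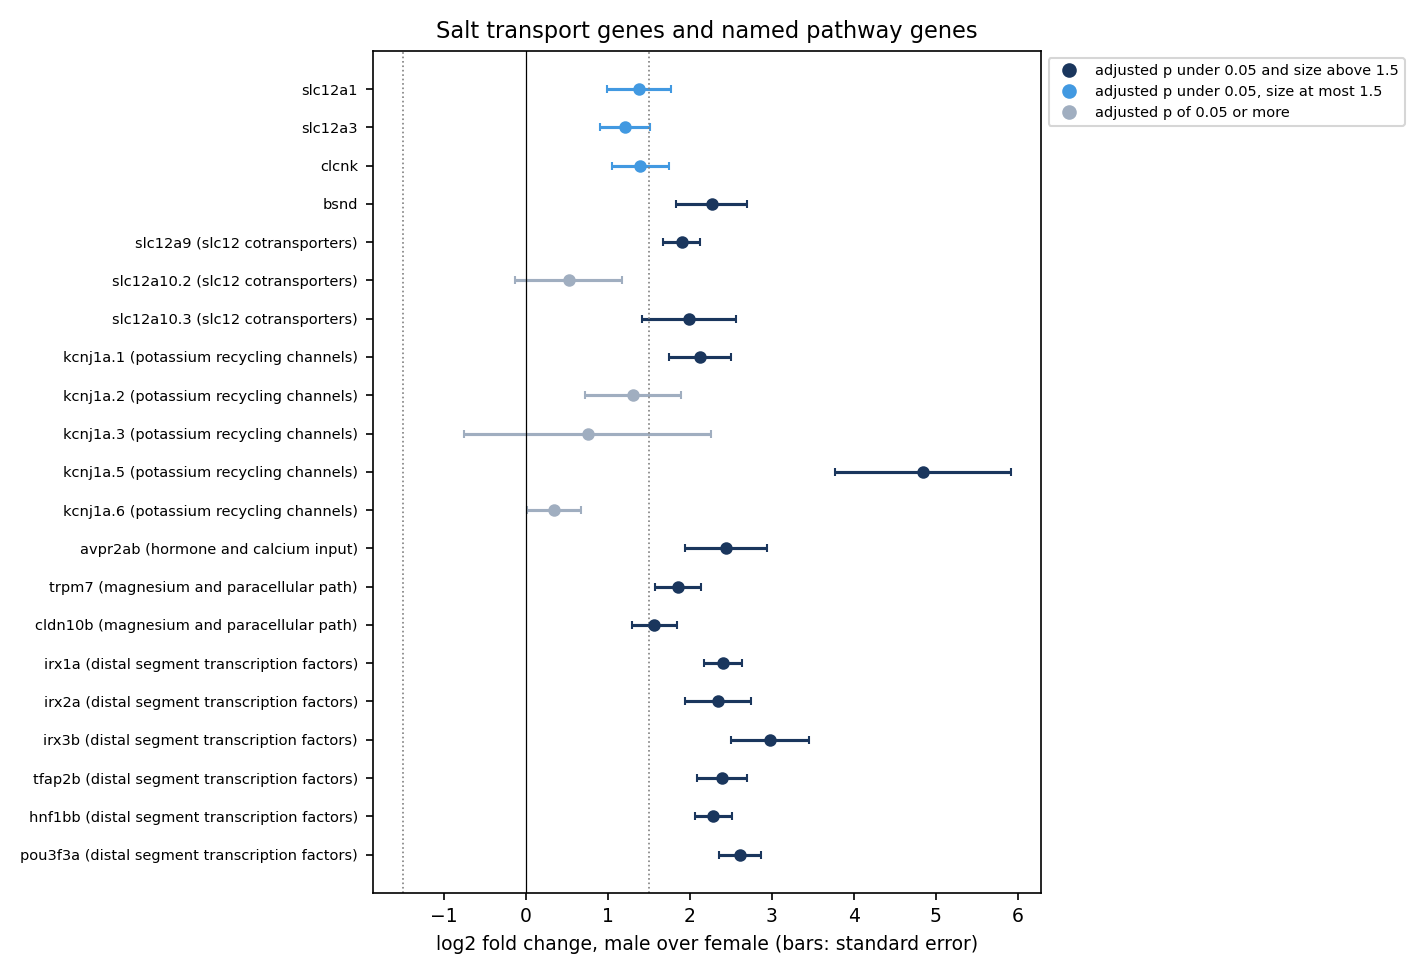
Log2 fold change of males over females (horizontal axis, bars show the standard error) for the 4 salt transport genes and the pathway genes chosen by rule, with the list of each gene in brackets and dotted lines at the limit of 1.5. All points lie above 0, and bsnd at 2.27 lies among irx1a, irx2a, tfap2b and hnf1bb, while slc12a1, slc12a3 and clcnk lie below the limit.

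To see which genes shared the profile of each salt transport gene over the 9 libraries, the levels on the log2(CPM + 0.5) scale were centred on the gene's mean and the root mean square difference was taken against 17991 genes with a symbol and a mean of at least 1 CPM. This is a description over libraries that also share the sex difference. Nearest to slc12a3 were larp4ab (0.17), the glutamate receptor subunit gene grin1a (0.19) and the AP-2 gene tfap2a (0.20). Nearest to clcnk were bin2a (0.14), cdh17 (0.17), a cadherin gene of the zebrafish nephron, and zgc:153738 (0.19). For bsnd they were irx1a (0.29), tmem97 (0.30) and the estrogen-related receptor gene esrrb (0.33), and for slc12a1 they were zgc:92518 (0.28), coch (0.28) and vill (0.30).

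Of these 12 genes, tfap2a stood at 13.1 CPM in pkd1M1 and between 19.5 and 29.1 CPM in the other males, with F6 at 13.7 and the other females between 6.22 and 8.12 CPM. Its pattern of a low pkd1M1 and a high F6 is that of slc12a3. It was picked for a profile near that of slc12a3, so this likeness is no separate result. Among the salt transport genes themselves, slc12a3 and clcnk were the nearest pair at 0.27, with clcnk in place 24 for slc12a3 and slc12a3 in place 16 for clcnk. The difference was 0.40 between slc12a1 and clcnk and 0.52 between slc12a1 and slc12a3. The farthest pair was slc12a3 and bsnd at 0.71, and bsnd was 0.55 from clcnk, the channel of which it is a subunit.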

How the data were processed

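Total RNA of kidneys was sequenced as paired-end reads. The authors assigned reads to transcripts with Kallisto, and tximport gave sums per gene, as TPM brought to the size of each library. The methods name GRCz11 with Ensembl release 101 and the submitters' processing notes name GRCz10. The deposited values are thus estimated counts per gene, whole numbers that the authors did not normalize between libraries. Column names and methods differ on whether gene length was taken out. Per-sample columns left unused numbered 0.

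In R 4.3.3, edgeR 4.0.16 was used for a filter on low counts (filterByExpr), for TMM normalization and for a quasi-likelihood test between the sexes, with Benjamini-Hochberg adjustment over 22148 genes and the study's thresholds. The columns named pkd1M1, pkd1M4 and F6 match no single sample label and were used by sex. The study's text gives 5 kidney sets per sex, and the labels give 4 male and 5 female samples. All same-sex pairs of libraries differed by more than sampling noise (lowest chi-square per degree of freedom 82.5). Single values were compared by 2-sided exact permutation tests over libraries, on log2(CPM + 0.5).

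The 4 genes, the 7 pathway lists and the marker lists were chosen with earlier results of these data known. Of the 105 listed pathway genes 99 were matched, by symbol or through a table of gene names. The text names the 4 genes, called pathway genes up to 6 per list by smallest p, all slc12a10 and kcnj1a genes and the 3 nearest profiles of each gene, and says where a gene was named for another reason. Alternatives were RLE size factors, other filters, DESeq2 1.42.0, edgeR's exact test, a pseudocount of 2, CPM without TMM, libraries left out and a replicate block. The tests were tried on simulated counts. Sequences of the genes were not used here. Figures and tables were made with matplotlib 3.10.9 and Python 3.11.15.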

Additional observations from a re-analysis of the deposited data

Results flagged for a closer look

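In groups of 4 or 5 libraries, a library was picked out when its gap to the nearest other library was a large part of the range of its sex (Dixon's test, critical values 0.829 for 4 libraries and 0.710 for 5). For independent groups of normally spread values, chance alone picks out about 1 in 20, and 8 of 62 were picked out here. The groups reuse the same 9 libraries over genes that vary together, so these shares are not a test. For slc12a3 the male library pkd1M1 lay at 310 CPM against 620 CPM in the nearest male, a gap of 0.887 of the range. F6 stood above the other females for clcnk (71.4 against 31.8 CPM, a gap of 0.794), bsnd (12.4 against 5.33 CPM, 0.71), kcnj1a.1 (121.7 against 54.3 CPM, 0.787) and kcnj1a.3 (1.27 against 0.223 CPM, 0.825). In slc12a1 relative to the proximal tubule markers, M2 stood above the other males (1.22 against 0.03 on the log2 scale, 0.933). The male pkd1M4 stood above the others for kcnj1a.6 (14.9 against 8.97 CPM, 0.847) and M1 for irx1a (131 against 106.1 CPM, 0.91).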

How the results depend on the processing

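With RLE size factors, another filter on low counts, DESeq2 or edgeR's exact test, 1 of the 4 salt transport genes was called, all 4 passed the adjusted p alone, and between 16 and 19 pathway genes were called against 16, of which 1 was higher in females with at least 10 counts in every library, with DESeq2 and with the exact test. Leaving out 1 library gave 1 to 3 of the 4 genes called, 1 to 4 past the adjusted p alone and 12 to 22 pathway genes. Over all genes 1086 to 1707 were called in these fits. The log2 fold changes were 1.17 to 1.80 in slc12a1, 1.099 to 1.46 in slc12a3, 1.26 to 1.82 in clcnk and 2.06 to 2.74 in bsnd. The log2 ratio differences were then -1.05 to -0.68 for slc12a1 to bsnd, -1.39 to -1.02 for slc12a3 to bsnd and -0.14 to 0.22 for slc12a1 to clcnk, with negative values without M2 (-0.14), pkd1M1 (-0.089) and F4 (-0.14). Relative to the proximal markers they were 0.67 to 1.09 for slc12a1, 0.42 to 0.99 for slc12a3, 0.80 to 1.149 for clcnk and 1.599 to 1.92 for bsnd. The value of kcnj1a.3 turned to -0.089 without M1. Without both libraries named with pkd1, 1 gene passed the adjusted p alone, 10 pathway genes were called and 635 genes in all against 1448. The log2 fold changes were 1.55 in slc12a1, 1.41 in slc12a3 and 1.40 in clcnk. The differences were -1.01 for slc12a1 to bsnd and -1.24 for slc12a3 to bsnd, and relative to the proximal markers 1.25 for slc12a1, 1.08 for clcnk and 2.14 for bsnd. With 2 males the exact tests cannot go below 0.0952. CPM without TMM moved the median of all genes by -0.18 (log2). This setting was tried only on the ratios between genes and on the levels relative to the proximal markers. No test changed sides there, but the scaling of a library cancels in the ratios and nearly cancels in those levels. The outcome was thus set beforehand, and the edgeR fits were not run without TMM. With a pseudocount of 2, tried on the levels relative to the proximal markers, no test changed sides.

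The replicate block could use M1, M2, F1 and F2. Between libraries of the same number the correlation of deviations was -0.01, a single value from these libraries that cannot settle whether the numbers pair them. With the replicate block all 4 genes were called, with 13 pathway genes and 859 genes in all. The same 4 libraries without the block, tried after seeing the data, gave 1 gene past the adjusted p alone, 5 pathway genes and 355 genes in all, with 1.95 in slc12a1, 1.59 in slc12a3 and 1.82 in clcnk. These fits hold fewer libraries, and other causes of the changes were not tested. The low-level kcnj1a copies rest on few counts, which limits what their values can show.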
